A study of Mus musculus with 13 samples.

Results

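The genes that lie next to Vdr on mouse chromosome 15 were examined, as protein-coding genes whose mm10 start falls in the 6 Mb from 95 to 101 Mb. Vdr itself, on the minus strand at chr15:97854425-97910630, was left out, as were Col2a1, Wnt10b and keratin genes. The window holds 96 such genes, 89 of them with at least 10 counts summed over all libraries, and 86 remained as members out of the 34709 genes of the count table. No keratin gene starts inside it. Of the 86 members, 15 start at a lower coordinate than Vdr and 71 at a higher one, and 72 passed the filter on low counts and were tested. Distance runs from a gene's start, here its lowest coordinate whatever its strand, to the nearest edge of Vdr.

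Messenger RNA was sequenced from lower incisors pulled from male mice of postnatal day 5, with 3 VDRgem libraries, 5 VDR-null libraries and 5 control libraries. VDRgem carries a receptor mutation that is known to abolish the response to natural vitamin D hormone while gemini analogs still activate the receptor. VDR-null mice are known for the loss of a functional receptor. Not given in the sources used here are the strain, the null allele, the make-up of the control genotype, the breeding of the lines and the animal behind each library. The p-values therefore describe the spread of these libraries alone. The libraries are of whole lower incisor tissue, in which fewer cells of a type cannot be told apart from less RNA per cell.

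The vitamin D receptor is a nuclear receptor that binds DNA with the retinoid X receptor, classically at direct repeats of a hexamer close to AGGTCA with a spacer of 3 bases. It acts on genes anywhere in the genome, and a gene beside Vdr is not thereby its target. Mouse lines made by gene targeting can keep flanking DNA of the strain in which the allele was made, which is why neighbours of a targeted gene are looked at on their own, and whether these lines keep any was not tested. The stretch around Vdr holds amino acid transporters, α-tubulins, chromatin regulators and hedgehog and Wnt ligands, with a dense block of genes on its higher-coordinate side.

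Total counts ran from 20405188 to 87783466 per library, and the members together held 0.351 to 0.413% of them. Vdr stood at 164 ± 50.9 CPM (counts scaled to a common library size) in VDRgem (SD, n = 3), 242 ± 32.7 CPM in VDR-null (n = 5) and 164 ± 15.8 CPM in control (n = 5). The libraries labelled VDR-null lay at 204 to 281 CPM, above all controls at 142 to 180 CPM, and in edgeR's test the log2 fold change was 0.56 (SE 0.15, adjusted p = 0.0618). In VDRgem against control it was -0.001 (adjusted p = 0.997). Vdr was called lower in VDRgem than in VDR-null, by -0.56 (SE 0.175, adjusted p = 0.0397). The VDRgem libraries lay at 107, 205 and 179 CPM, with VDRgem 2 inside the VDR-null range. Remaining transcript does not test the label, since the deleted part is not known here. Ameloblast markers summed to 25300 to 53000 CPM in VDRgem, 15700 to 74400 CPM in VDR-null and 13700 to 71000 CPM in control, and odontoblast markers to 131000 to 143000, 55700 to 150000 and 78000 to 125000 CPM in the same order of groups. Keratinocyte and cell cycle markers differed between VDRgem and control, with some libraries of other groups inside the VDRgem range. The 10 oral keratinocyte markers summed to 16900, 3890 and 302 CPM in VDRgem, to 20.5 to 117 CPM in VDR-null and to 21.5 to 535 CPM in control, and 9 of 10 passed the test as higher in VDRgem than in control. The 10 cell cycle markers summed to 274, 325 and 290 CPM in VDRgem, 303 to 752 CPM in VDR-null and 510 to 705 CPM in control, and all 10 were lower in VDRgem than in control. Skeletal muscle markers summed to 240 CPM in VDRgem 1 and 630 CPM in VDR-null 3, where controls held 6.20 to 27.6 CPM.

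The neighbours as a whole were centred close to the other genes in both mutants. Their median log2 fold change was 0.021 in VDRgem against control, where all 17837 genes tested had 0.001, and -0.032 in VDR-null against control, where all genes had 0.01. The median size of the change, whatever its direction, was 0.21 for members, 0.19 for all genes and 0.21 for the 614 tested genes on the rest of chromosome 15 in VDRgem. In VDR-null it was 0.19 for members, 0.175 for all genes and 0.18 for the rest of the chromosome. Changes above 1 on the log2 scale were found for 3 members in each mutant (4.17%), against 7.02% of all genes in VDRgem and 2.97% in VDR-null.

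Some single neighbours did change. In edgeR's quasi-likelihood test at an adjusted p under 0.05, 11 of 72 members (15.3%) were called in VDRgem against control, 4 of them higher and 7 lower, against a background of 8.62% of all genes (4.80% higher and 3.82% lower) and 11.1% of the rest of chromosome 15. In VDR-null against control 3 members (4.17%) were called, all lower, against a background of 1.33% of all genes (0.678% higher and 0.656% lower) and 0.489% of the rest of the chromosome. No member was called higher in VDR-null, where 12 (16.7%, background 11.7%) were higher at an unadjusted p under 0.05, limma-voom called 0 higher and DESeq2 called 8 higher and 6 lower, against 10.5% of all genes called by DESeq2. Between the mutants 19 members (26.4%) were called, 10 higher and 9 lower in VDRgem than in VDR-null, against a background of 18.8% (10.6% higher and 8.18% lower) and 20.7% of the rest of the chromosome. At an unadjusted p under 0.05 there were 25 members in VDRgem against control (34.7%, background 23.9%), 23 in VDR-null against control (31.9%, background 22.8%) and 32 between the mutants (44.4%, background 34.8%). Libraries of the groups did not overlap for 23 members in VDRgem against control (31.9%, background 19.3%), 9 in VDR-null against control (12.5%, background 7.09%) and 20 between the mutants (27.8%, background 18%). The mutant comparisons share their controls. In all, 23 members were called in at least 1 comparison and 59 in neither comparison with control.

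These counts depended on single libraries, and so did the share of all genes called. Without VDRgem 1 no member was called in VDRgem against control (17 at an unadjusted p under 0.05), while the share of all genes called was 0.364%. Each of the 11 calls was lost without VDRgem 1, with adjusted p of 0.0860 to 0.318 and no change of direction. Rpap3, Smarcd1 and Mettl7a1 kept theirs with every other single library left out, while the other 8 were lost in 5 to 10 of the 13 fits that leave out 1 library. Without VDRgem 2 there were 5 calls (5.54% of all genes called), and without each control in turn 3 to 6 (3.63 to 5.74%). In VDR-null the count was 0 without VDR-null 2 or without control 2, 3 or 4 (17 to 21 at an unadjusted p under 0.05). The share of all genes called there was 0.0333 to 0.0565%. The count was 1 without VDR-null 1 or control 1 (0.175% and 0.0387% of all genes). It was 5 without VDRgem 1, VDRgem 3 or VDR-null 4 (2.49 to 3.75%), and 6 without VDR-null 3 (2.76%). Between the mutants it was 5 without VDRgem 1 (2.39% of all genes) and 14 to 25 with any other library left out (9.19 to 25.2%). Scaling by library totals alone moved the median of all genes in VDRgem against control by -0.17. It gave 3 higher and 12 lower members there, with 12.1% of all genes called. Between the mutants the shift of that median was -0.16, and this scaling gave 8 higher and 18 lower, with 27.6% of all genes called.

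With both sides of Vdr pooled, the size of the changes did not fall with distance. The 10 tested members within 0.5 Mb had a median absolute log2 fold change of 0.24 in VDRgem against control with 3 called, and the 18 members at 0.5 to 1 Mb had 0.15 with none called by edgeR or limma-voom, 1 by DESeq2 and 3 at an unadjusted p under 0.05. The 25 members at 1 to 2 Mb had 0.23 with 5 called, and the 19 members beyond 2 Mb had 0.27 with 3 called. In VDR-null the same classes, from near to far, had 0.13, 0.16, 0.28 and 0.17, with 1, 1, 1 and 0 called by edgeR (beyond 2 Mb 0 by limma-voom, 3 by DESeq2 and 6 at an unadjusted p under 0.05). The largest medians were thus beyond 2 Mb in VDRgem and at 1 to 2 Mb in VDR-null. With both sides pooled, the nearest class did not have the highest median in either mutant. It did have the highest share called in edgeR's test. From near to far the shares were 30, 0, 20 and 15.8% in VDRgem (8.62% of all genes). They were 10, 5.56, 4 and 0% in VDR-null (1.33% of all genes), each from 1 or 0 calls. At an unadjusted p under 0.05 the nearest class held 6 of 10 members in VDRgem (background 23.9%) and 2 of 10 in VDR-null (background 22.8%). The farther classes in VDR-null held 4 of 18, 11 of 25 and 6 of 19 by that measure. DESeq2 called 2, 3, 6 and 3 members there from near to far (10.5% of all genes). By either count the highest share in VDR-null was thus at 1 to 2 Mb, while in VDRgem it stayed in the nearest class. On the lower-coordinate side alone the nearest class, of 5 members, had the highest median in VDR-null (0.37, against 0.16, 0.19 and 0.225 in the farther classes of 3 or 4 members), while in VDRgem the farthest class had it (0.625, against 0.31 in the nearest).

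A rank correlation gave the same picture as the medians over all 72 tested members. Spearman's rho between distance and the absolute log2 fold change was 0.14 in VDRgem and 0.15 in VDR-null, that is, weakly larger changes farther from Vdr. On the lower-coordinate side rho was 0.125 in VDRgem and 0.08 in VDR-null over 15 members, and on the higher-coordinate side 0.24 and 0.21 over 57. The points share their libraries and neighbouring genes are not replicates, so these are descriptions of the fitted values. Taken library by library, with each member's deviation from the control mean, rho was 0.07, 0.14 and 0.06 in VDRgem and -0.02 to 0.18 in VDR-null. It was 0.00 to 0.24 in control, each control being set against the mean of the other controls. The values of both mutants lay within or just below the span of the control libraries themselves.

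**Figure D1:**
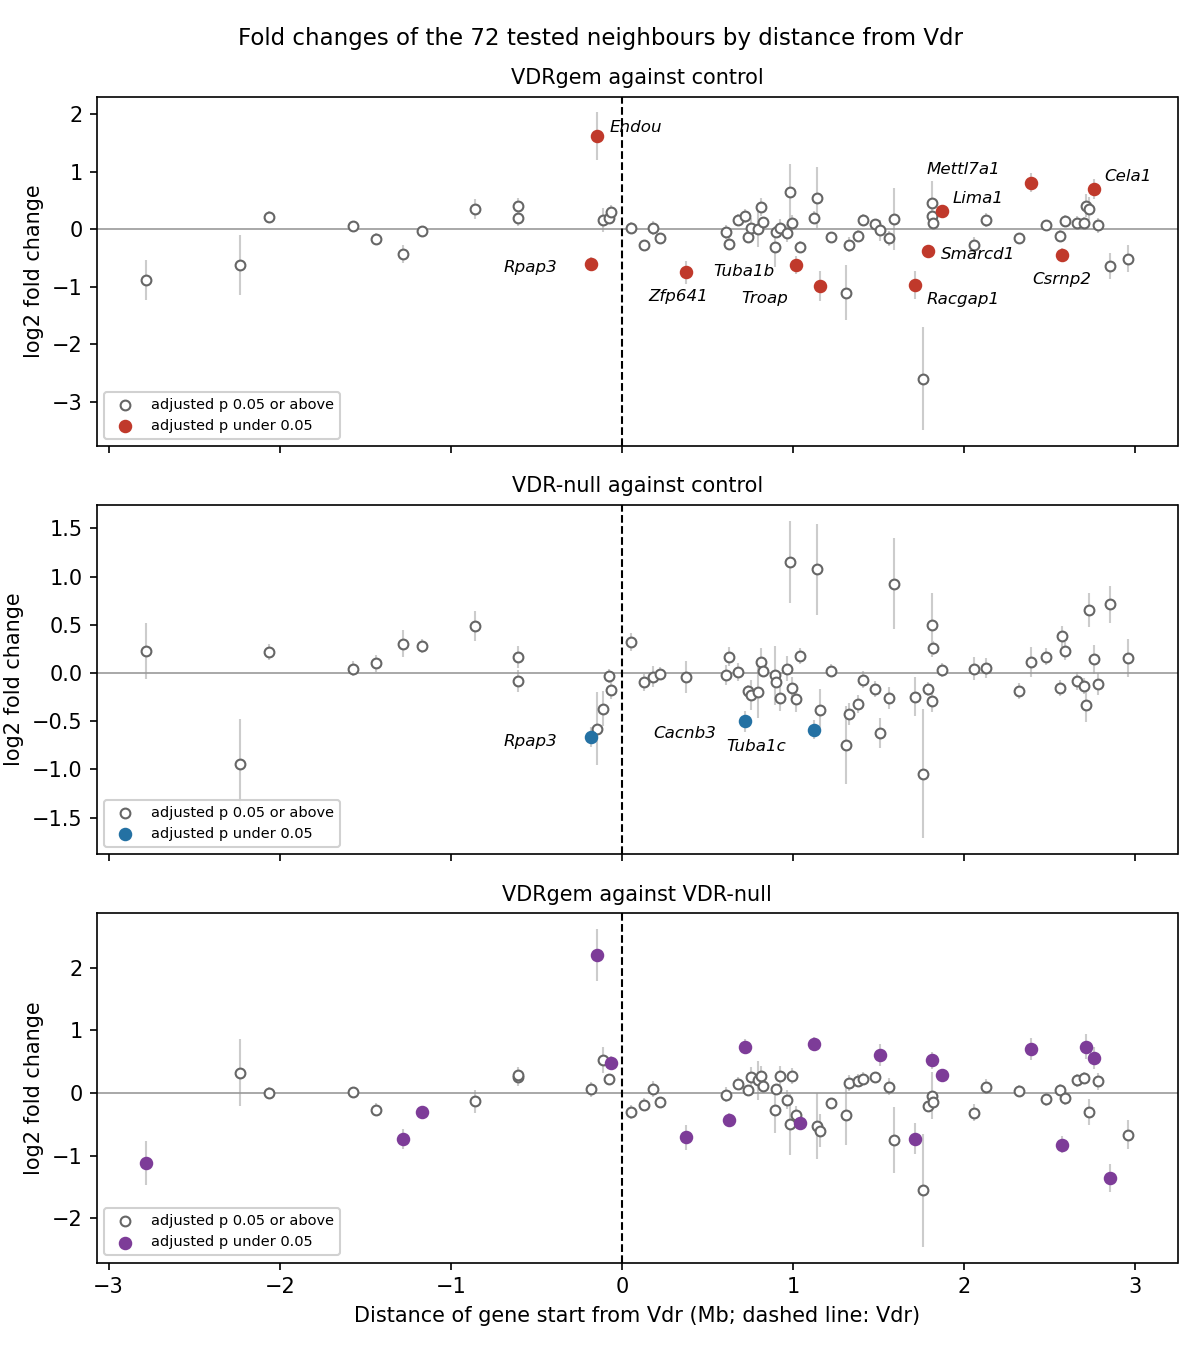
Log2 fold change (vertical axis, with bars of 1 SE) against distance of the gene start from Vdr in Mb (horizontal axis, dashed line at Vdr) for the 72 tested members in VDRgem against control, VDR-null against control and VDRgem against VDR-null. Filled points are called at an adjusted p under 0.05, and they are scattered over the window. The nearest to Vdr are Endou in VDRgem against control (143 kb), Rpap3 in VDR-null against control (179 kb) and Hdac7 in VDRgem against VDR-null (61.8 kb).

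Counted by distance instead of size, 3 of 28 members within 1 Mb (10.7%) and 8 of 44 farther out (18.2%) were called in VDRgem against control, where 8.62% of all genes were. The 3 nearer calls were all within 0.5 Mb. In VDR-null it was 2 of 28 (7.14%) and 1 of 44 (2.27%), where 1.33% of all genes were called, and between the mutants 5 of 28 (17.9%) and 14 of 44 (31.8%), where 18.8% were. By side, the 15 members at lower coordinates held 2 calls in VDRgem and 1 in VDR-null, and the 57 at higher coordinates held 9 and 2. The shares called in VDR-null rest on 3 calls. An unadjusted p under 0.05 was reached in VDRgem by 8 of 15 members at lower and 17 of 57 at higher coordinates (background 23.9%). In VDR-null it was reached by 5 of 15 and 18 of 57 (background 22.8%).

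Rpap3 was the 1 neighbour called in both mutants, which is 1 of the 11 VDRgem calls and 1 of the 3 VDR-null calls. It encodes a co-chaperone that joins the R2TP complex and HSP90 in assembling RNA polymerases and small nucleolar particles. The gene (ENSMUSG00000022466, protein-coding) lies at chr15:97675097-97705825 on the minus strand, and its start is 179 kb from Vdr. Rpap3 stood at 13.3, 16.9 and 11.9 CPM in the VDRgem libraries, at 14.5, 12.3, 11.6, 13.6 and 15.1 CPM in VDR-null, and at 21.2, 19.5, 22.4, 21.4 and 21.8 CPM in control. Every library of either mutant lay below every control, and the mutants overlapped each other.

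In edgeR's test Rpap3 in VDRgem fell by 0.605 as a log2 fold change (SE 0.12, adjusted p = 0.0133), a level 0.657 times that of control. It fell by 0.67 in VDR-null (SE 0.10, adjusted p = 0.0180), 0.630 times control. Between the mutants the log2 fold change was 0.06 (SE 0.12, adjusted p = 0.753).

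The fall of Rpap3 in VDRgem was not called without VDRgem 1, where it was -0.58 (adjusted p = 0.0860). In VDR-null it was not called without VDR-null 2 (adjusted p = 0.0626) or without control 1, 2, 3 or 4 (adjusted p = 0.0519 to 0.0633), with log2 fold changes of -0.71 to -0.62 over all alternatives. The keratinocyte markers summed to 16900, 3890 and 302 CPM in VDRgem 1, 2 and 3, and their part in the fall was not tested. With the keratinocyte score as a covariate Rpap3 was at -0.73 in VDRgem (adjusted p = 0.212) and was still called in VDR-null (adjusted p = 0.0314). That fit called 0% of all genes in VDRgem against control and 0.359% in VDR-null against control.

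The RefSeq promoter windows on GRCm38.p6, each of 300 bases from 250 before to 50 after a transcript start, are shown for the members called in VDR-null, in lower case with any AGGTCA hexamer in capitals.
Rpap3, minus strand, chr15:97705773-97706072: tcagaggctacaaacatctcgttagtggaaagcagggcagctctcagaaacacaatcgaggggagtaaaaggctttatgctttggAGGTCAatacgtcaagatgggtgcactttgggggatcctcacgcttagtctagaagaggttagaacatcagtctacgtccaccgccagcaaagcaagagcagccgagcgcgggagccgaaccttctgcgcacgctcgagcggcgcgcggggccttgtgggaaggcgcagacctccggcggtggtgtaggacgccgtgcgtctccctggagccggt
Cacnb3, plus strand, first of its windows, chr15:98632078-98632377: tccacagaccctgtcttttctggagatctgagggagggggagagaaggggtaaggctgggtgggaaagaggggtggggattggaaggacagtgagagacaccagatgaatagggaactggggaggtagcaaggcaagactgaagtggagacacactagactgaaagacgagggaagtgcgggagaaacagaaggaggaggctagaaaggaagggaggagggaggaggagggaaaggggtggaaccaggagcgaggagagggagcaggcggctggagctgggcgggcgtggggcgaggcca
Tuba1c, plus strand, chr15:99029641-99029940: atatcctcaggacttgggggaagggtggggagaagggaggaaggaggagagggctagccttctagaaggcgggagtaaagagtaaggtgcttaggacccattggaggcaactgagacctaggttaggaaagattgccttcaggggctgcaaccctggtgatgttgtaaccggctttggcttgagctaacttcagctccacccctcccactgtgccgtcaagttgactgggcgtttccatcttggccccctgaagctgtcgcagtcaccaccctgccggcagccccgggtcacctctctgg

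The single receptor half-site AGGTCA occurs once in the Rpap3 window and in neither strand of the Cacnb3 and Tuba1c windows. Windows were found by symbol for 66 of 86 members. On either strand AGGTCA was present in 14 of 84 member windows (16.7%) and in 5340 of 32851 windows genome-wide (16.3%). Among windows of members called in any comparison it was in 5 of 25 (20%), and among the others in 9 of 59 (15.3%). The DR3 vitamin D response element, searched on both strands with a purine allowed in place of the leading A and a T in place of the inner G of each half-site, was in 0 of the 84 member windows and in 13 windows genome-wide (0.0396%). A match of letters does not show binding, and none in these bases says nothing of sites elsewhere.

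The next nearest neighbours were called in VDRgem or in neither mutant against control. On the lower-coordinate side Endou, an endoribonuclease gene 143 kb away, had 13, 4.95 and 2.25 CPM in VDRgem, 1.27, 1.79, 1.74, 1.09 and 1.45 CPM in VDR-null and 2.36, 1.70, 1.95, 3.29 and 1.59 CPM in control. In edgeR's test it was higher in VDRgem than in control (log2 fold change 1.62, SE 0.41, adjusted p = 0.0291), yet VDRgem 3 lay inside the control range. Endou followed the order of the keratinocyte markers, which summed to 16900, 3890 and 302 CPM in the same 3 libraries. Without VDRgem 1 it was at 0.70 (adjusted p = 0.318). With the keratinocyte score as a covariate it was at -0.34 (SE 0.44, adjusted p = 0.773), so no direction is shown. That fit called 0% of all genes in VDRgem against control. The part of the keratinocyte markers in the rise was not tested.

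The 3 tested members between Endou and Vdr had no call against control in the fit to all libraries. Rapgef3, the cAMP-regulated exchange factor EPAC, had 0.16 in VDRgem and -0.37 in VDR-null as log2 fold changes against control (adjusted p = 0.689 and 0.237). Slc48a1, a heme transporter, had 0.19 and -0.03 (adjusted p = 0.178 and 0.851). Hdac7, a class IIa histone deacetylase 61.8 kb from Vdr, stood at 87.2, 80.7 and 80.7 CPM in VDRgem, above all controls at 59.4 to 76.6 CPM, while VDR-null ran from 45.7 to 65.0 CPM. Its log2 fold change was 0.31 in VDRgem against control (adjusted p = 0.115), -0.17 in VDR-null against control (adjusted p = 0.326) and 0.48 between the mutants (SE 0.11, adjusted p = 0.0142). Without VDRgem 1 that difference was 0.43 (adjusted p = 0.0861). The 0.31 of Hdac7 in VDRgem against control was called without VDR-null 1 (adjusted p = 0.0429). With any other single library left out it was not called. Slc48a1 and Hdac7 overlap on the annotation, as do Senp1 and Pfkm, so their reads are uncertain.

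On the higher-coordinate side the closest 4 tested members were not called in either mutant. Tmem106c, a transmembrane protein gene 53.6 kb from Vdr, had 24.3, 22.9 and 20.5 CPM in VDRgem, 29.2, 25.9, 34.5, 25.0 and 24.4 CPM in VDR-null and 21.2 to 23.4 CPM in control. All VDR-null libraries lay above all controls, and the log2 fold change was 0.32 (SE 0.095, adjusted p = 0.0788). Senp1, a SUMO protease, had -0.28 and -0.10 as log2 fold changes in VDRgem and VDR-null, the glycolytic enzyme gene Pfkm 0.03 and -0.04, and Asb8, which encodes a SOCS box protein, -0.15 and -0.01.

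Zfp641, a zinc finger gene 375 kb away, was the one call on that side within 0.5 Mb. It stood at 3.49, 7.04 and 5.35 CPM in VDRgem, 7.51, 7.36, 8.60, 8.50 and 11.2 CPM in VDR-null and 7.81 to 9.61 CPM in control. All VDRgem libraries lay below all others. It fell by 0.75 in VDRgem (log2, SE 0.20, adjusted p = 0.0344), was at -0.04 in VDR-null (adjusted p = 0.911), and was lower in VDRgem than in VDR-null by -0.705 (SE 0.20, adjusted p = 0.0276). Without VDRgem 1 it was at -0.53 against control (adjusted p = 0.164), and it also lost its call without VDRgem 3 or without any single control.

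**Figure D2:**
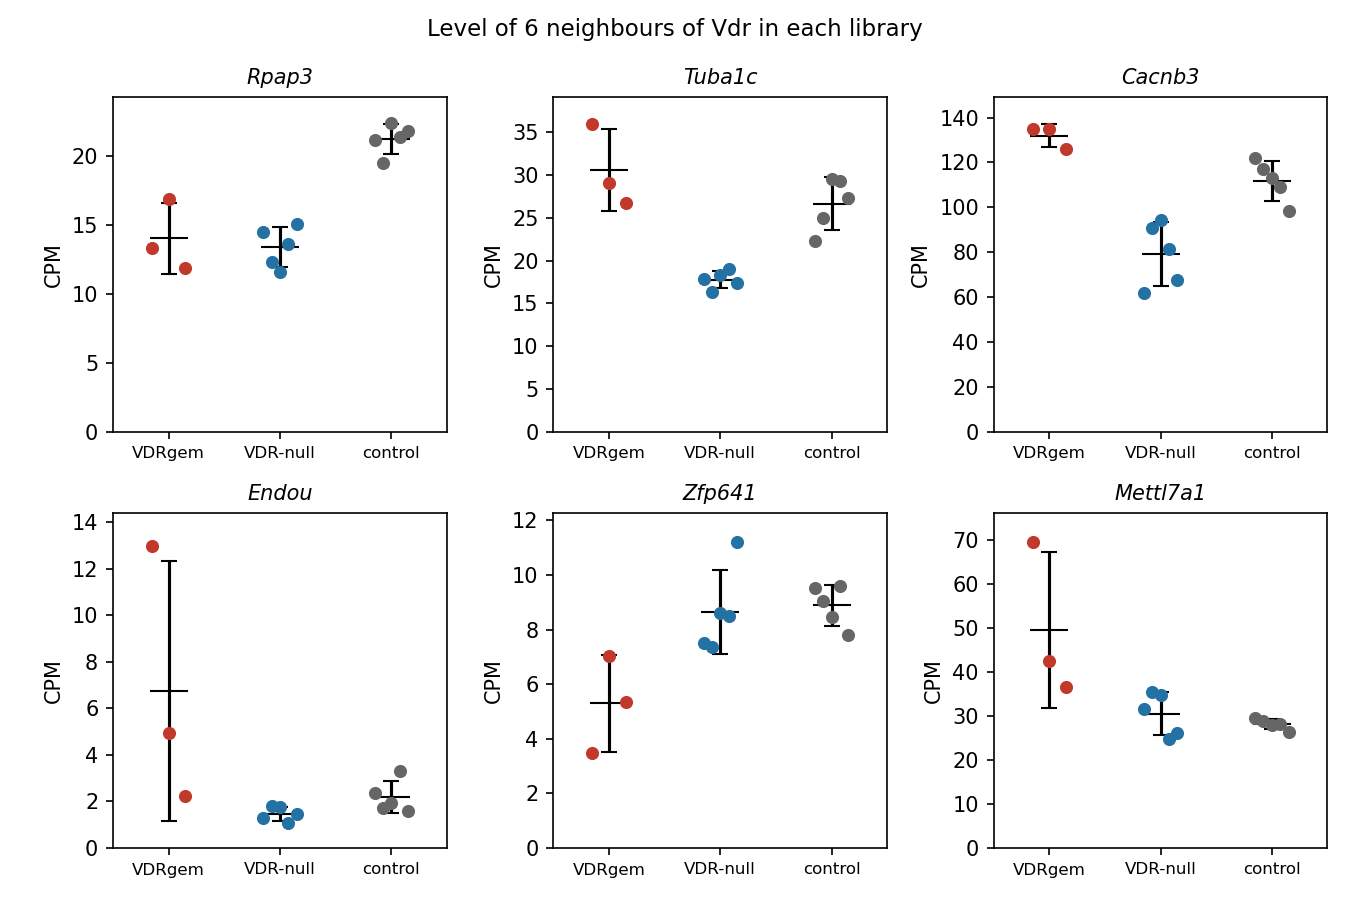
Level in CPM (vertical axis) of Rpap3, Tuba1c, Cacnb3, Endou, Zfp641 and Mettl7a1 in each VDRgem, VDR-null and control library (points), with the mean and SD of each group (bars). Rpap3 is at 11.9 to 16.9 CPM in VDRgem and 11.6 to 15.1 CPM in VDR-null, below all controls at 19.5 to 22.4 CPM, and Tuba1c and Cacnb3 are low in VDR-null.

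Besides Rpap3, a calcium channel subunit gene and an α-tubulin gene fell in VDR-null. Cacnb3, a β subunit of voltage-gated calcium channels 720 kb from Vdr (chr15:98630840-98644529, plus strand), stood at 135, 135 and 126 CPM in VDRgem, 61.9, 90.7, 94.2, 81.4 and 67.8 CPM in VDR-null and 122, 117, 113, 109 and 98.2 CPM in control. All 5 VDR-null libraries lay below all controls, and all VDRgem libraries above them, with 0.24 as log2 fold change in VDRgem against control that missed the threshold (SE 0.12, adjusted p = 0.260). Cacnb3 fell by 0.50 in VDR-null (log2, SE 0.11, adjusted p = 0.0426) and was higher in VDRgem than in VDR-null by 0.74 (SE 0.12, adjusted p = 0.00333).

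Tuba1c, which encodes an α-tubulin and starts 1120 kb from Vdr (chr15:99029891-99038110, plus strand), stood at 36.0, 29.1 and 26.8 CPM in VDRgem, 17.8, 16.3, 18.3, 19.0 and 17.4 CPM in VDR-null and 22.3, 25.0, 29.5, 29.3 and 27.3 CPM in control. VDR-null did not overlap either other group. The log2 fold change was -0.59 in VDR-null against control (SE 0.10, adjusted p = 0.0223) and 0.79 in VDRgem against VDR-null (adjusted p = 0.00197). The VDR-null calls were lost without VDR-null 1 or 2 or control 2, 3 or 4 for Tuba1c (adjusted p = 0.0519 to 0.0683), and for Cacnb3 without VDRgem 2, VDR-null 1, 2 or 5 or control 1, 2, 3 or 4 (adjusted p = 0.0654 to 0.112). Both calls between the mutants held with each library left out in turn.

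The neighbouring α-tubulin genes moved differently. Tuba1a, the most abundant member per kilobase of exon in control (81.3 CPM per kb), stood at 117, 124 and 115 CPM in VDRgem, 171, 165, 174, 174 and 144 CPM in VDR-null and 121, 145, 148, 149 and 169 CPM in control. It was lower in VDRgem than in VDR-null by -0.48 (log2, SE 0.10, adjusted p = 0.00748), and was at -0.31 in VDRgem and 0.175 in VDR-null against control (adjusted p = 0.0674 and 0.232). Tuba1b stood at 18.8, 19.0 and 16.7 CPM in VDRgem, 28.3, 16.9, 23.1, 27.9 and 19.8 CPM in VDR-null and 25.6 to 32.6 CPM in control. It fell by 0.63 in VDRgem (SE 0.15, adjusted p = 0.0265), with all VDRgem libraries below all controls, and was at -0.27 in VDR-null (adjusted p = 0.236). The 3 genes are near-identical in their coding sequence, and Tuba1a and Tuba1b share an annotated exon stretch with another gene, so reads may have been split between them.

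The amino acid transporters on the lower-coordinate side differed between the mutants. Slc38a1 and Slc38a2, which encode sodium-coupled neutral amino acid transporters, start 1.28 and 1.17 Mb from Vdr. Slc38a1 stood at 35.3, 54.0 and 56.7 CPM in VDRgem, 84.4, 59.5, 84.6, 86.5 and 92.3 CPM in VDR-null and 58.9 to 72.8 CPM in control. Slc38a2 stood at 202, 195 and 195 CPM in VDRgem, 243, 218, 238, 257 and 269 CPM in VDR-null and 183 to 217 CPM in control. All VDRgem libraries lay below all VDR-null libraries for both genes, with log2 fold changes of -0.74 (SE 0.16, adjusted p = 0.0101) for Slc38a1 and -0.31 (SE 0.08, adjusted p = 0.0210) for Slc38a2. Both calls were lost without VDRgem 1, at -0.57 for Slc38a1 (adjusted p = 0.0580) and -0.34 for Slc38a2 (adjusted p = 0.0794), and that of Slc38a2 also without VDRgem 2 (adjusted p = 0.0875). Against control, Slc38a1 was at -0.435 in VDRgem and 0.306 in VDR-null (adjusted p = 0.1096 and 0.2012). Slc38a2 was at -0.03 in VDRgem and 0.28 in VDR-null (adjusted p = 0.872 and 0.0577), with all VDR-null libraries above all controls. Slc38a4, a related transporter 0.86 Mb away, had 0.35 in VDRgem and 0.49 in VDR-null against control (adjusted p = 0.251 and 0.0963).

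**Figure D3:**
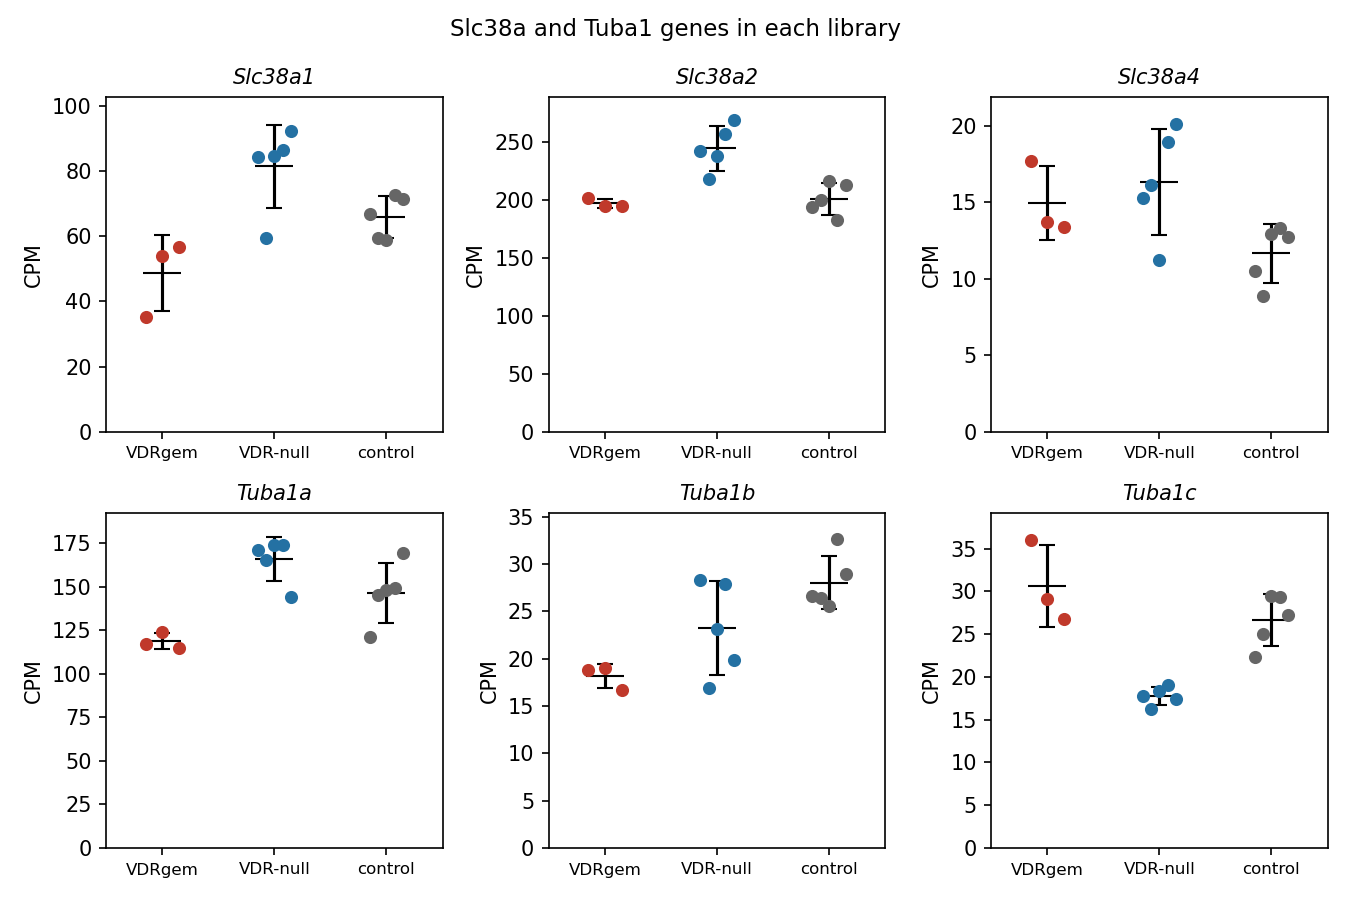
Level in CPM (vertical axis) of Slc38a1, Slc38a2, Slc38a4, Tuba1a, Tuba1b and Tuba1c in each VDRgem, VDR-null and control library (points), with the mean and SD of each group (bars). Slc38a1, Slc38a2 and Tuba1a are lower in VDRgem than in VDR-null, whereas Tuba1c is lower in VDR-null.

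Among the 6 solute carriers of the window none was called in either mutant against control in edgeR's test. An unadjusted p under 0.05 was reached by 3 in VDRgem (background 23.9%) and 4 in VDR-null (background 22.8%). DESeq2 called 0 in VDRgem (13.3% of all genes) and 3 in VDR-null (10.5% of all genes), and limma-voom none in either. The third call between the mutants, where 18.8% of all genes were called, was Slc4a8, a sodium-dependent bicarbonate transporter 2.85 Mb away. It stood at 1.09, 1.01 and 1.15 CPM in VDRgem, 3.15, 2.19, 2.5, 3.98 and 2.06 CPM in VDR-null and 1.44 to 1.99 CPM in control. VDRgem lay below and VDR-null above every control, and between the mutants it fell by 1.36 in VDRgem (log2, SE 0.23, adjusted p = 0.00358), a call kept with each library left out. The iron transporter Slc11a2 had 0.07 and 0.17 in VDRgem and VDR-null against control (adjusted p = 0.737 and 0.266).

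Of the 7 members that fell in VDRgem against control, 3 have roles in the cytoskeleton and cell division. That list has 10 tested members, beside a background of 3.82% of all genes called lower in VDRgem, of which Tuba1b, Racgap1 and Troap fell and Lima1 rose in VDRgem, and Tuba1c fell in VDR-null. Racgap1, needed for cytokinesis, stood at 22.9, 26.7 and 23.2 CPM in VDRgem, 53.7, 21.3, 30.4, 53.1 and 42.3 CPM in VDR-null and 41.7 to 57.2 CPM in control, a fall of 0.97 in VDRgem (SE 0.24, adjusted p = 0.0278). Troap, a spindle-associated protein gene, stood at 4.28, 4.42 and 3.75 CPM in VDRgem, 7.15, 2.90, 5.94, 8.41 and 7.07 CPM in VDR-null and 6.63 to 9.57 CPM in control, and fell by 0.99 (SE 0.26, adjusted p = 0.0341). For both genes VDRgem lay below all controls, while VDR-null 2 was as low as VDRgem. The 10 cell cycle markers, at 274 to 325 CPM in VDRgem, 303 CPM in VDR-null 2 and 510 to 705 CPM in control, ran in the same direction. Their part in the calls was not tested. Lima1, an actin-binding protein gene, was the rise, at 224, 218 and 220 CPM in VDRgem and 165 to 184 CPM in control (log2 fold change 0.32, SE 0.085, adjusted p = 0.0345).

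Of 13 tested chromatin and transcription genes, 3 were called in VDRgem against control, all lower, beside 8.62% of all genes called and 3.82% called lower. In VDR-null none was called by edgeR or limma-voom. There 5 reached an unadjusted p under 0.05 (background 22.8%), and DESeq2 called 2 (10.5% of all genes). The 3 that fell in VDRgem were Zfp641, described above, Smarcd1 and Csrnp2. Smarcd1, a SWI/SNF remodelling subunit gene, stood at 61.6, 72.9 and 65.6 CPM in VDRgem, 70.9 to 84.1 CPM in VDR-null and 76.8 to 94.0 CPM in control, a fall of 0.38 (SE 0.09, adjusted p = 0.0203). Csrnp2, a transcription factor gene 2.57 Mb from Vdr, stood at 9.55, 9 and 12.4 CPM in VDRgem, 18.1, 17.5, 21.8, 19.2 and 15 CPM in VDR-null and 13.4 to 15 CPM in control. It fell by 0.445 in VDRgem (SE 0.13, adjusted p = 0.0462), was at 0.38 in VDR-null (adjusted p = 0.0738) and was lower in VDRgem than in VDR-null by -0.82 (SE 0.13, adjusted p = 0.00271). Ccnt1, the cyclin of the elongation factor P-TEFb, was lower in VDRgem than in VDR-null by -0.42 (adjusted p = 0.0202).

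Of 4 tested genes with epithelial or protease roles, beside 4.80% of all genes called higher in VDRgem against control and 10.6% between the mutants, Endou and Cela1 rose in VDRgem against control, and Endou, Cela1 and Smagp, an adhesion glycoprotein gene, were higher in VDRgem than in VDR-null. Cela1, a pancreatic-type elastase gene, stood at 5.01, 4.75 and 4.72 CPM in VDRgem, 2.36 to 3.72 CPM in VDR-null and 2.39 to 3.37 CPM in control (log2 fold change 0.70 against control, SE 0.17, adjusted p = 0.0265). The keratinocyte markers summed to 302 to 16900 CPM in these VDRgem libraries, and their part in the rise was not tested. With their score as a covariate Cela1 was at 0.58 (SE 0.28, adjusted p = 0.370). That fit called 0% of all genes in VDRgem against control, so the lost call does not set Cela1 apart from other genes. Mettl7a1, a methyltransferase-like gene 2.39 Mb away, had the same order as those markers in VDRgem, at 69.6, 42.4 and 36.5 CPM in VDRgem, 24.7 to 35.5 CPM in VDR-null and 26.4 to 29.5 CPM in control. It rose by 0.81 (SE 0.17, adjusted p = 0.0168) against control, and was at 0.47 without VDRgem 1 (adjusted p = 0.101). Mettl7a1 has near-identical copies in the window, so its reads are uncertain.

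Of 6 tested metabolic genes none was called against control in either mutant by edgeR or limma-voom. An unadjusted p under 0.05 was reached by 0 in VDRgem (background 23.9%) and 2 in VDR-null (background 22.8%). DESeq2 called 0 and 1, beside 13.3% and 10.5% of all genes. Cox14, a cytochrome c oxidase assembly factor gene, was higher in VDRgem than in VDR-null by 0.52 (SE 0.13, adjusted p = 0.0182), at 34.3, 26.7 and 23.1 CPM in VDRgem and 17.6 to 22.7 CPM in VDR-null. Among 6 genes of RNA processing and translation Rpap3 was the sole edgeR call in each mutant, beside 8.62% of all genes in VDRgem and 1.33% in VDR-null. At an unadjusted p under 0.05 there were 1 in VDRgem and 4 in VDR-null, and DESeq2 called 1 and 2, beside the same shares of all genes as above. Of 6 tested channel and related genes edgeR called Cacnb3 alone, in VDR-null against control and between the mutants. Beside the same shares of all genes, 4 in VDRgem and 2 in VDR-null reached an unadjusted p under 0.05, and DESeq2 called 1 in each. The lowest fold change of any member in VDRgem belonged to another channel gene, Asic1, singled out after its values were seen, at 0.0827 ± 0.0557 CPM in VDRgem (SD, n = 3) and 0.557 ± 0.247 CPM in control (n = 5), with -2.60 as its log2 fold change (SE 0.89, adjusted p = 0.0897).

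Of the 4 secreted signal genes, Dhh and Nell2 passed the filter on low counts. Neither was called against control by edgeR or limma-voom in either mutant. An unadjusted p under 0.05 was reached by 1 in VDRgem (background 23.9%) and 1 in VDR-null (background 22.8%). DESeq2 called 0 in VDRgem (13.3% of all genes) and 1 in VDR-null (10.5% of all genes). Dhh, a hedgehog ligand made by Schwann cells, stood at 3.68, 4.16 and 6.20 CPM in VDRgem, 3.71, 5.20, 12.6, 1.59 and 10.5 CPM in VDR-null and 2.01 to 3.78 CPM in control. The groups overlapped, and its log2 fold change was 0.65 in VDRgem and 1.15 in VDR-null (adjusted p = 0.448 and 0.135). Neuron and glia markers, summed, were at 301, 292 and 573 CPM in VDRgem, 294, 537, 1150, 110 and 1630 CPM in VDR-null and 228 to 351 CPM in control, and VDR-null 3 and 5, high in Dhh, were also high in them. Their part in the Dhh level was not tested. Nell2, a secreted glycoprotein gene known from neural tissue, was at 14.0, 21.2 and 9.77 CPM in VDRgem, 45.3, 12.8, 25.2, 44.0 and 33.7 CPM in VDR-null and 21.4 to 32.7 CPM in control. It was lower in VDRgem than in VDR-null by -1.11 (SE 0.35, adjusted p = 0.0422), although VDR-null 2 lay inside the VDRgem range. Without VDRgem 1 its adjusted p was 0.157, and the call was lost in 10 of 13 fits that leave out 1 library. Wnt1 and C1ql4 did not pass the filter.

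The 14 members below that filter had 10 to 103 counts summed over all libraries and no library above 0.326 CPM. Besides Wnt1 and C1ql4 they include the milk protein gene Lalba and the water channel gene Aqp5, whose proteins are known from mammary and salivary gland. No fold change was given for any of them.

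The remaining calls between the mutants were rises of Nckap5l by 0.60 (adjusted p = 0.0323), of Lima1 by 0.29 (adjusted p = 0.0336), of Cela1 by 0.56 (adjusted p = 0.0391), of Smagp by 0.74 (adjusted p = 0.0205), of Mettl7a1 by 0.70 (adjusted p = 0.0168) and of Endou by 2.2 (adjusted p = 0.00584), and a fall of Racgap1 by 0.73 (adjusted p = 0.04998). That of Racgap1 was lost in 11 of 13 fits that leave out 1 library, and each of the others in 1 to 5 of them, VDRgem 1 included. Nckap5l, a microtubule-associated protein gene, stood at 45.7, 49.5 and 48.5 CPM in VDRgem, 19.4 to 40.2 CPM in VDR-null and 41.9 to 54.2 CPM in control. Its log2 fold change against control was -0.02 in VDRgem and -0.62 in VDR-null (adjusted p = 0.9635 and 0.0577). Cacnb3, Tuba1c, Tuba1a, Csrnp2 and Slc4a8 were the 5 of the 19 that held with each library left out in turn. They start 0.720 to 2.85 Mb from Vdr, all on the higher-coordinate side, which holds 57 of the 72 tested members and 14 of these 19 calls.

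The mutant libraries lay farther from the control mean than the controls did, for the members and over all genes. A shift shared by a group adds to this distance, so it is not the spread within a group. The median absolute deviation of the 72 members from the control mean was 0.29, 0.22 and 0.18 on the log2 scale in VDRgem and 0.20 to 0.28 in VDR-null. It was 0.10 to 0.16 in control, each control being measured against the mean of the other controls. Over all genes tested it was 0.19 to 0.29 in VDRgem, 0.18 to 0.26 in VDR-null and 0.13 to 0.15 in control. The signed medians of the members were -0.01 to 0.01 in VDRgem, -0.11 to -0.02 in VDR-null and -0.02 to 0.04 in control.

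**Figure D4:**
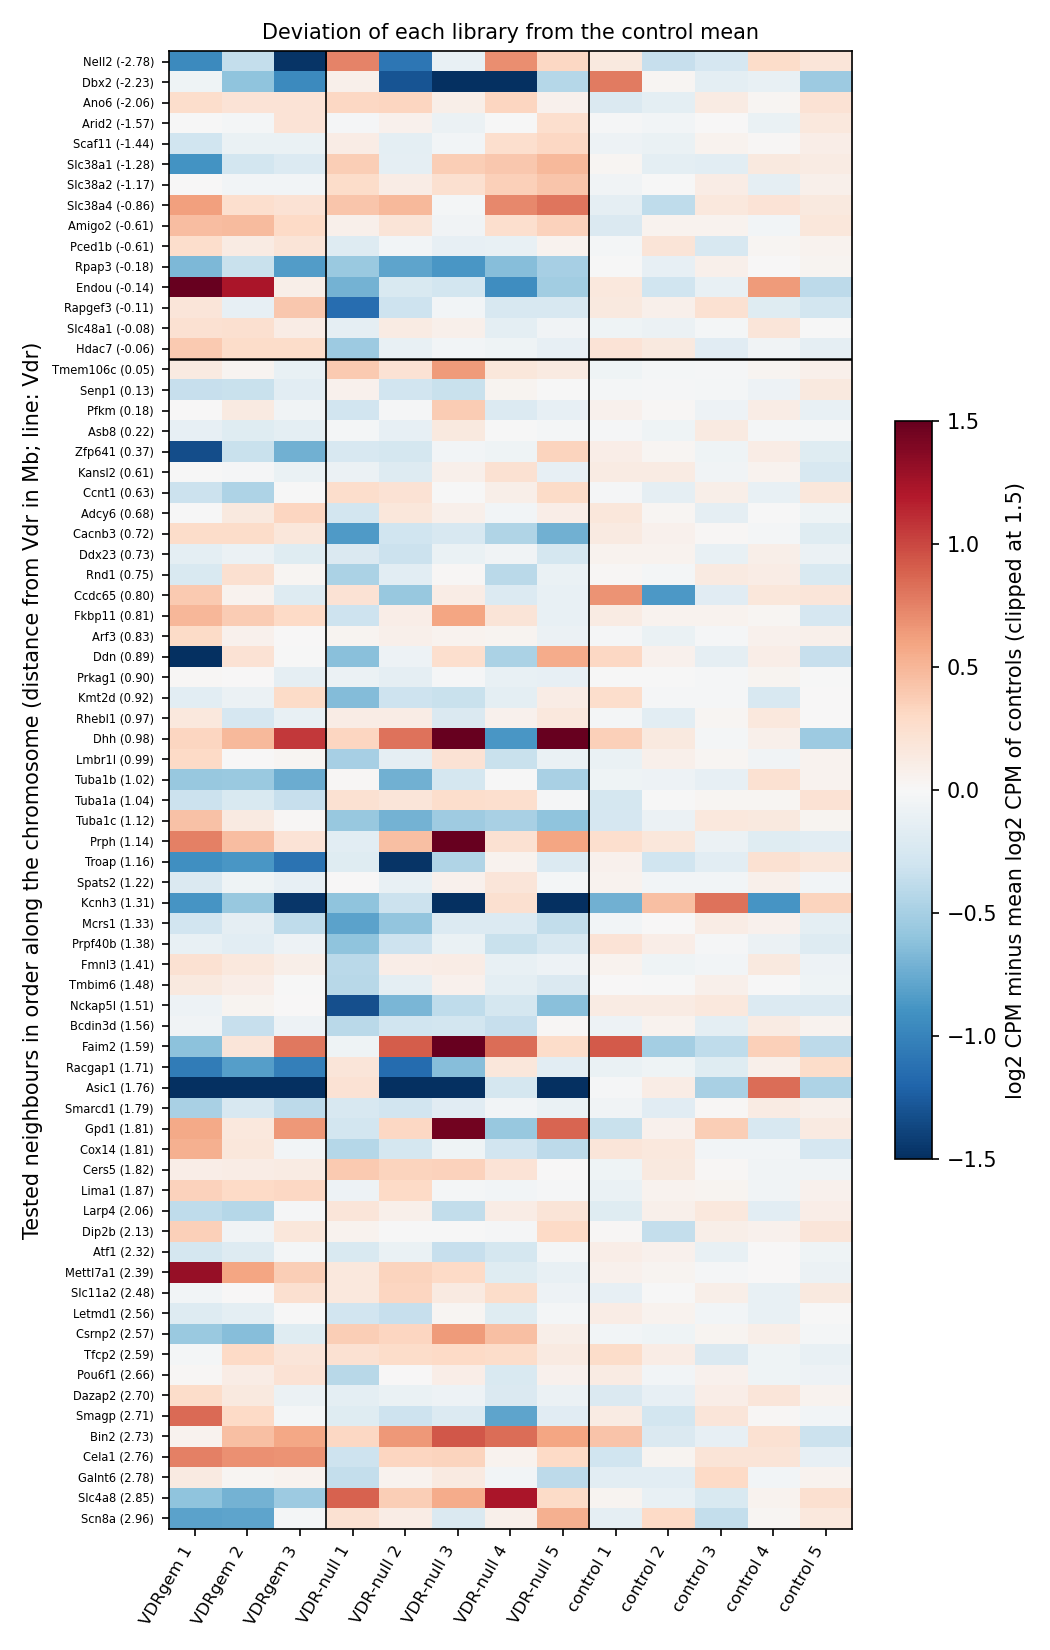
Deviation of each library (columns, VDRgem, VDR-null, then control) from the mean log2 CPM of controls for the 72 tested members, ordered along the chromosome with the distance from Vdr in Mb beside each name and a line at Vdr (color scale clipped at both ends). Rpap3 is low in all 8 mutant libraries, and genes of either color occur on both sides of Vdr.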

How the data were processed

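The authors deposited raw counts per gene, whole numbers without scaling, for 13 libraries. Per the labels' protocols, libraries were stranded and poly-A selected. Per the submitters' processing notes, bcl2fastq 2.20.0.422, STAR 2.5.3a and HTSeq 0.6.1p1 were used with mm10. Not given in the sources used here are the annotation release, counting mode and strand setting, so overlapping genes (30 tested members overlap another gene or have near-identical copies) are uncertain. Of 34709 genes, 34618 were matched to GENCODE M21 on GRCm38 (mm10) for symbol, biotype and coordinates. Libraries were checked for copies: the chi-square per degree of freedom was at least 15.2 within groups and 24.6 between groups.

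Counts were scaled by TMM, filtered with filterByExpr (minimum count 10, leaving 17837 genes) and tested with edgeR 4.0.16 in R 4.3.3. A single model held all libraries, 1 mean for each group and no covariate. The quasi-likelihood test was adjusted by Benjamini-Hochberg over all genes tested in each of 3 comparisons, and an adjusted p under 0.05 was called. CPM are TMM-scaled, and log2 CPM used a prior count of 2. SD refers to libraries and SE to a fitted log2 fold change. The test was tried on simulated counts.

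Members and gene lists were chosen with earlier results of these data known. Named were called members, the 5 tested members nearest to Vdr on each side, the smallest p-values, and the solute carriers, tubulins and secreted signals. Alternatives were DESeq2 1.42.0, limma-voom (limma 3.58.1), other scaling, filters and thresholds, only the groups compared, and leaving out each library. Total counts ran from 20405188 to 87783466, and intervals of spread cover these libraries. Plots were made in Python 3.11.15 with matplotlib 3.10.9.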

Additional observations from a re-analysis of the deposited data

Results flagged for a closer look

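In 64 sets of libraries (each named member in VDR-null and in control), 7 held 1 library far from the other 4, where chance gives about 1 set in 20. In VDR-null, Hdac7 was at 45.7 CPM in VDR-null 1 with the others at 61.1 to 65.0 CPM, and Lima1 was at 217 CPM in VDR-null 2 with the others at 168 to 175 CPM. Slc38a1 was at 59.5 CPM in VDR-null 2 with the others at 84.4 to 92.3 CPM, and Smagp was at 3.49 CPM in VDR-null 4 with the others at 4.91 to 5.39 CPM. In control, Asb8 was at 33.0 CPM in control 3 with the others at 28.8 to 29.6 CPM. Senp1 was at 55.5 CPM in control 5 with the others at 47.5 to 49.3 CPM, and Slc48a1 was at 85.9 CPM in control 4 with the others at 71.2 to 75.0 CPM.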

How the results depend on the processing

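The median of members in VDR-null and its rank correlation with distance moved by less than the spread between libraries under every alternative for which they were recomputed. In neither mutant were they recomputed with DESeq2's own test, limma-voom or only the groups compared. The share of all genes called is given in brackets. The count of members called in VDRgem against control, 11 as reported, was 0 at an adjusted p under 0.01 (0.774%). It was 3 within 1 Mb of Vdr (8.62%), and 0 to 12 with single libraries left out (0.364 to 11.1%). In VDR-null the count, 3 as reported, was 5 with a mean of at least 1 CPM (2.98%) and 14 with DESeq2 (10.5%). It was 13 at an adjusted p under 0.1 (9.01%), 0 at an adjusted p under 0.01 (0.0336%), and 0 to 6 with single libraries left out (0.0333 to 3.75%). Between the mutants the count, 19 as reported, was 7 with only the groups compared (4.3%) and 6 at an adjusted p under 0.01 (4.2%). It was 5 within 1 Mb (18.8%), and 5 to 25 with single libraries left out (2.39 to 25.2%). For the zero counts, edgeR gave 25 members in VDRgem and 23 in VDR-null at an unadjusted p under 0.05 in all libraries, and limma-voom called 8 and 3 at an adjusted p under 0.05. The median of members in VDRgem, 0.021 as reported, was -0.145 with library totals alone, 0.043 without a low-count filter and 0.015 to 0.032 with single libraries left out, and the rank correlation, 0.143 as reported, was 0.0853 to 0.179. Among alternatives chosen after seeing the data, leaving out VDRgem 1 and 2 gave 0 calls in VDRgem against control and 0 between the mutants (10 and 15 at an unadjusted p under 0.05), a median of -0.035 and a correlation of 0.0928, and assumes that the remaining VDRgem library varies like the other groups. The keratinocyte score as a covariate gave 0 calls in both (9 and 11 at an unadjusted p under 0.05), a median of -0.047 and a correlation of 0.0814. With it Endou was at -0.342 against control (SE 0.438) and -0.207 against VDR-null, neither of them called. Over all genes these fits called 0.0262% and 0% in VDRgem against control. Without members that overlap another gene or have near-identical copies, 7 of 42 tested were called in VDRgem against control (8.62%), beside 11 of 72 with them. The cause of these changes was not tested, except that fewer libraries, fewer members or a stricter threshold entered where stated. Of single-member values recomputed, 2018 kept their side of the threshold, 232 lost the call and 52 gained one. Another 2, both of Endou, lost the call and had the other sign. Of the 1460 uncalled in both fits, 41 had the other sign. Low members are limited by depth, and Asic1 stayed under 1 CPM in every library. No paired analysis was possible because the labels carry no replicate numbers that groups share.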
